A study of Mus musculus with 7 samples.

Results

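The 10 genes described here are T-cell leukemia oncogenes and genes of the Notch pathway, namely Tal1, Lmo2, Lyl1, Tlx1, Notch1, Hes1, Dtx1, Myc, Runx1 and Ptcra, chosen by name out of 25033 genes listed. T-cells of 4 ORP4L KI mice were compared with T-cells of 3 wild-type (WT) littermates by RNA sequencing, with 1 library per mouse. Both groups were C57BL/6J mice aged 15 months. ORP4L KI mice carry human ORP4L, an oxysterol-binding protein encoded by Osbp2 in the mouse, in the Rosa26 locus behind a CAG promoter and a loxP-flanked stop cassette that is removed by Cre under the T-cell promoter of Lck, and they were moribund when sampled, so that genotype and illness cannot be told apart. The comparison asks whether genes that drive human T-cell leukemia differed in level between T-cells that express ORP4L and normal T-cells. Of the 10 genes, 8 had enough reads to be tested, and Tlx1 and Ptcra were too low to judge.

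Hes1 was the only gene of the 8 tested that passed the thresholds used here, a log2 fold change beyond 1 in either direction together with an unadjusted p below 0.01, and it fell to 39.6% of its WT level. Dtx1, another gene that Notch switches on, stood at 54.1% of its WT mean, with an unadjusted p of 0.0471 in edgeR's quasi-likelihood test. Tal1, Lmo2, Lyl1, Notch1, Myc and Runx1 had log2 fold changes between -0.13 and 0.39, and none of these 6 genes had groups that did not overlap. No gene of the 10 passed a Benjamini-Hochberg adjusted p under 0.05, a level that 3 of 13462 tested genes (0.0223%) reached with edgeR. At an unadjusted p under 0.05 without a fold threshold, 2 of the 8 tested genes (Hes1 and Dtx1) and 1845 of all 13462 (13.7%) passed, and DESeq2's Wald test placed 1 of them, Hes1, at an adjusted p of 0.0137, with 784 of the 13462 genes under 0.05 by that test.

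T-cell acute lymphoblastic leukemia (T-ALL) arises from immature T-cells in which transcription factors of blood stem cells or of the embryo are switched on where they should be silent. TAL1 and LYL1 are basic helix-loop-helix factors that bind DNA with E-proteins, LMO2 is a LIM-only protein that bridges them to GATA factors through LDB1, and TLX1 is a homeobox factor. NOTCH1 is a cell surface receptor that is cut by an ADAM protease and then by gamma-secretase after it meets a Delta or Jagged ligand on a neighbouring cell. The freed part enters the nucleus, joins the DNA-binding protein RBPJ and a Mastermind coactivator, and switches on HES1, DTX1, MYC and PTCRA, the chain that pairs with the T-cell receptor beta chain in the thymus. NOTCH1 is the gene most often mutated in T-ALL, and RUNX1 is a transcription factor needed for normal blood and T-cell formation.

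The regions upstream of 4 genes are shown because Notch acts through the letters TGGGAA, the core of RBPJ's site, and TAL1 and LYL1 through the E-box CANNTG. Sequences are from RefSeq on GRCm38.p6, each covers the 250 bases before an annotated start of transcription, and none of the 4 overlaps an annotated exon. Ptcra is at chr17:46763713-46763962 on the minus strand, and Tal1, Lyl1 and Nrarp are on the plus strand at chr4:115056176-115056425, chr8:84701207-84701456 and chr2:25180508-25180757. Capitals mark every TGGGAA or CANNTG on either strand, and the letters TG can belong to both, which happened for no pair of matches in these windows. Nrarp, a Notch target that restrains Notch, is not among the 10 genes and is shown as the Notch target with the highest log2 fold change.
Ptcra: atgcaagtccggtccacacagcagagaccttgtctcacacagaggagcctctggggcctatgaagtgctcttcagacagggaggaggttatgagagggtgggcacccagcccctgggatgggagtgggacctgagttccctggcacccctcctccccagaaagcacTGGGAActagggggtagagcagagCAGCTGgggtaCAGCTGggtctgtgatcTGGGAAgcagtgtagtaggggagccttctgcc
Tal1: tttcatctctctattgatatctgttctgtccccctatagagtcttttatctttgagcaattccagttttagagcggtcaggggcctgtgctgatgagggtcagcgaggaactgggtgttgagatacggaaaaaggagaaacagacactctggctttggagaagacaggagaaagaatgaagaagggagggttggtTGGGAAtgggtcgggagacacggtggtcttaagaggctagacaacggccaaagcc
Lyl1: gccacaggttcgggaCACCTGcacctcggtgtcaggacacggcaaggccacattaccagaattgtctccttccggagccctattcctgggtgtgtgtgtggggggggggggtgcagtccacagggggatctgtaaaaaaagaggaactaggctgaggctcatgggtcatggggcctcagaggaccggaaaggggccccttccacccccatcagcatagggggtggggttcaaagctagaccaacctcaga
Nrarp: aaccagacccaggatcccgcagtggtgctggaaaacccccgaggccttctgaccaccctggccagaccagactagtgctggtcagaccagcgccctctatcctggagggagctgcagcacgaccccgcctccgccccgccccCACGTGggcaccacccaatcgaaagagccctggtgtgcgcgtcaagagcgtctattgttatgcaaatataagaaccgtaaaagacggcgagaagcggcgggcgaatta

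The Ptcra window held TGGGAA at 84 and 32 bases before the start, with an E-box CAGCTG at 60 and another at 49 bases before it. The Tal1 window held TGGGAA at 55 bases before the start, and the GATA letters AGATAA, searched on both strands and not in capitals, at 205. A second annotated start of Tal1 has a window at chr4:115057561-115057810 that held none of the 3 motifs. The Lyl1 window held 1 E-box and the Nrarp window held 1, with no TGGGAA in either. Of 32851 mouse windows of the same length, 21.6% held TGGGAA, 2.77% held it at least 2 times, 66.2% held an E-box and 9.99% held AGATAA. Windows were given for 7 of the 10 genes, not for Hes1, Lmo2 and Myc, and 2 of the 7 (Ptcra and Tal1) held TGGGAA. These matches are letters in a window and were not measured as binding sites.

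The libraries held between 12918187 and 19665679 reads counted to genes. Osbp2, which checks the genotype, had 0, 0 and 1 reads in WT and 188, 742, 155 and 443 reads in ORP4L KI replicates 1 to 4. The knocked-in sequence is human and the mapping reference was mouse. These counts therefore check the label and do not measure the level of ORP4L, and from which of the 2 sequences the reads came was not tested. Levels are given as CPM, the reads of a gene relative to the size of its library, after TMM scaling. The T-cell label was checked with 12 T-cell markers such as the CD3 chains, Lck and Zap70, all of which were detected and tested, with a summed level of 2238 to 2945 CPM in WT and 1505, 4252, 2963 and 3342 CPM in ORP4L KI replicates 1 to 4. The methods describe lysis of red blood cells and a kit for naive CD4+ T-cells, steps that would remove other cells, and do not say whether these libraries came from cells so isolated. Cd8a, a marker of the CD8+ T-cells that such a kit removes, was 123.7 to 178.5 CPM in WT and 79.5 to 226.1 CPM in ORP4L KI, and markers of other blood cells were present too. The sum of 14 granulocyte markers was 1793 to 4917 CPM in WT and 10200 to 143300 CPM in ORP4L KI, highest in ORP4L KI replicate 1, and all 14 passed the thresholds as higher. The sum of 10 dendritic cell markers was 837 to 1380 CPM in WT and 326.8 to 526.2 CPM in ORP4L KI, and 9 of the 10 passed as lower. Of all tested genes 2.38% passed as higher and 2.30% as lower. The sum of 13 erythroid markers was 9909 to 18600 CPM in WT and 1191 to 8666 CPM in ORP4L KI, and that of 11 endothelial markers was 181.7 to 192.7 and 95.74 to 157.3 CPM. Sums of B cell, monocyte and macrophage, NK cell, megakaryocyte and stem and progenitor markers overlapped between the groups. No marker of any list was at 0 in every library. In such bulk samples fewer cells of a type and less RNA per cell cannot be told apart, and the part of these other cells in the results below was not tested except where a value is given.

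**Figure D1:**
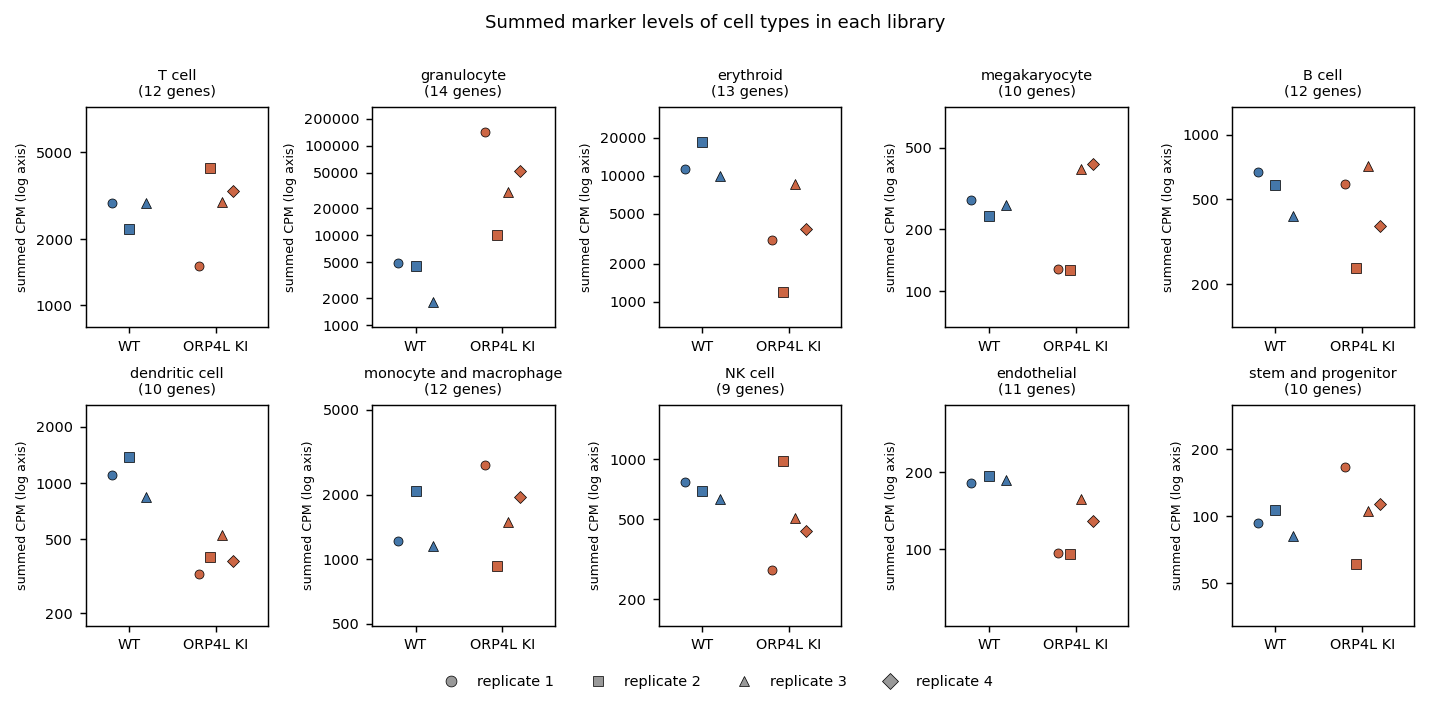
Summed level of the markers of 10 cell types in each library, in CPM on a log axis, with 1 point per library and the replicate number as its shape. Granulocyte sums were higher, and dendritic cell, erythroid and endothelial sums lower, in all 4 ORP4L KI libraries than in all 3 WT libraries, while the T-cell sums overlapped.

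Hes1, a helix-loop-helix repressor that is the classical target of Notch, spans chr16:30064384-30067796 on the plus strand (GRCm38). Its level was 33.3, 46.1 and 20.2 CPM in WT replicates 1, 2 and 3 and 9.55, 8.81, 18.02 and 16.2 CPM in ORP4L KI replicates 1, 2, 3 and 4. All ORP4L KI libraries were lower than all WT libraries, although the lowest WT library lay close to the highest ORP4L KI library. The means were 33.2 ± 13.0 CPM (SD, n = 3) and 13.2 ± 4.65 CPM (SD, n = 4). Its log2 fold change was -1.34 (SE 0.35), with an unadjusted p of 0.00355 and an adjusted p of 0.117 in edgeR's quasi-likelihood test. An exact two-sided permutation test of mean log2 CPM gave p = 0.0286, the smallest value that 4 against 3 libraries allow. As background, 310 of 13462 genes (2.30%) passed the thresholds as lower, 320 (2.38%) as higher and 630 (4.68%) in either direction. Among the 8 tested genes Hes1 was the 1 that passed, and a share from 8 genes cannot be set firmly against 4.68%.

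The call of Hes1 was lost without WT replicate 1 or without WT replicate 2. Without WT replicate 2, the highest library for Hes1, the log2 fold change was -1.02 with unadjusted p = 0.0216 by edgeR. Without WT replicate 1 it stayed at -1.34, with unadjusted p = 0.0110 by edgeR. Calls over all genes fell in the same fits, from 630 to 329 without WT replicate 2 and to 438 without WT replicate 1. WT replicate 2 also had the highest sums of dendritic cell markers (1380 CPM) and erythroid markers (18600 CPM). Relative to the T-cell marker sum, Hes1 stood at 11.3, 20.6 and 6.91 CPM per 1000 CPM of markers in WT replicates 1 to 3. In ORP4L KI replicates 1 to 4 the same ratio was 6.35, 2.07, 6.08 and 4.85. The groups still did not overlap on this scale, which was chosen after the data had been seen, and the exact permutation p was again 0.0286.

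Dtx1, a Deltex ubiquitin ligase that Notch induces and that acts on Notch itself, spans chr5:120680202-120711927 on the minus strand. Its level was 226.9, 204.7 and 212.6 CPM in WT replicates 1, 2 and 3, the closest agreement between WT libraries after Runx1 among the 8 tested genes. In ORP4L KI replicates 1, 2, 3 and 4 it was 48.4, 203.2, 109.1 and 103.7 CPM. ORP4L KI replicate 2 thus lay just under the lowest WT library, and the other 3 lay well under it. The means were 214.7 ± 11.3 CPM (SD, n = 3) and 116.1 ± 64.2 CPM (SD, n = 4). The log2 fold change was -0.89 (SE 0.39, unadjusted p = 0.0471, adjusted p = 0.354 by edgeR), under the fold threshold, and the exact permutation test gave p = 0.0571. Without ORP4L KI replicate 2 the log2 fold change was -1.32 with unadjusted p = 0.00165, past both thresholds.

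ORP4L KI replicate 2 had the highest T-cell marker sum of all libraries (4252 CPM) and ORP4L KI replicate 1 the lowest (1505 CPM). Relative to these markers Dtx1 stood at 77.0, 91.5 and 72.7 CPM per 1000 CPM in WT replicates 1 to 3. In ORP4L KI replicates 1 to 4 it stood at 32.2, 47.8, 36.8 and 31.0. The 4 ORP4L KI libraries lay closer together on this scale and well under the 3 WT libraries. The difference of mean log2 ratios was -1.13, with an exact permutation p of 0.0286, on a scale chosen after the data had been seen. Hes1 and Dtx1 were thus the 2 tested genes of the 10 whose groups did not overlap after TMM scaling, both lower in ORP4L KI. With total counts alone the groups of Dtx1 overlapped, and those of Hes1 did not. Over all tested genes 993 (7.38%) did not overlap with ORP4L KI lower and 866 (6.43%) with ORP4L KI higher.

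**Figure D2:**
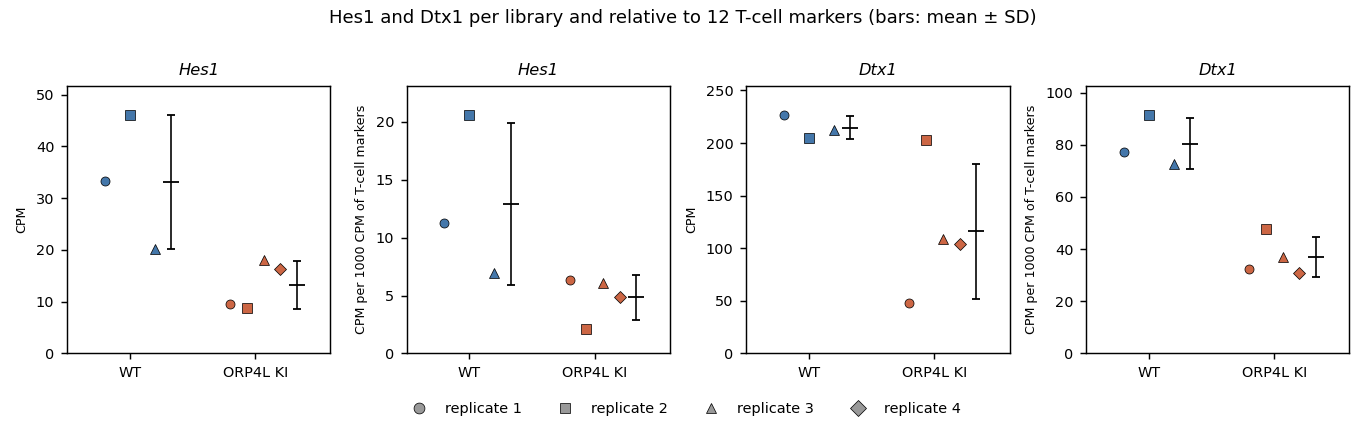
Hes1 and Dtx1 in each library, as CPM and as CPM per 1000 CPM of 12 T-cell markers, with bars for mean ± SD of 3 WT and 4 ORP4L KI libraries. Relative to T-cell markers Dtx1 was 72.7 to 91.5 in WT and 31.0 to 47.8 in ORP4L KI, while for CPM ORP4L KI replicate 2 (203.2) lay next to the lowest WT library (204.7).

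Notch1, the receptor, spans chr2:26457903-26516663 on the minus strand. Its level was 88.9, 84.8 and 153.6 CPM in WT replicates 1 to 3 and 103.2, 185.8, 125.6 and 116.3 CPM in ORP4L KI replicates 1 to 4. The highest WT library exceeded 3 of the 4 ORP4L KI libraries, so the groups overlapped. This rested on WT replicate 3, without which all 4 ORP4L KI libraries lay above WT and the log2 fold change was 0.61 (unadjusted p = 0.0528 by edgeR), while without ORP4L KI replicate 2 it was 0.05. With all libraries the log2 fold change was 0.28 (SE 0.29), with unadjusted p = 0.347 and an adjusted p of 0.759 by edgeR. Exons of Notch1 share 1068 bases with the opposite-strand transcript 0610009E02Rik, and the strand setting of the counting is not given in the sources used here, so that reads from the 2 genes cannot be told apart in that stretch.

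Ptcra, which spans chr17:46755663-46763712 on the minus strand, was near the limit of detection. It had 0, 5 and 1 reads in WT replicates 1 to 3 and 4, 0, 0 and 0 reads in ORP4L KI replicates 1 to 4. The ratio of pooled reads at TMM library sizes, ORP4L KI over WT, was 0.452, with a 95% exact interval of 0.0939 to 1.91 that covers counting error only. It turned to 1.78 without WT replicate 2. A count of 0 allows up to 3 reads, which is 0.153 to 0.232 CPM per library by total counts, without TMM scaling. A change of Ptcra within the interval above was not detectable at this depth.

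Tal1 spans chr4:115056426-115071755 on the plus strand. Its level was 8.88, 7.16 and 6.46 CPM in WT replicates 1 to 3 and 13.5, 7.499, 11.7 and 6.59 CPM in ORP4L KI replicates 1 to 4. ORP4L KI replicates 1 and 3 were above all WT libraries and the other 2 were within the WT range. The log2 fold change was 0.39 (SE 0.31, unadjusted p = 0.238, adjusted p = 0.672 by edgeR). The gene had 92 to 222 reads per library, so that it was measured but scarce.

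Lmo2 spans chr2:103957986-103981878 on the plus strand. Its level was 45.2, 39.2 and 23.2 CPM in WT replicates 1 to 3 and 62.7, 23.6, 45.9 and 38.1 CPM in ORP4L KI replicates 1 to 4. Lyl1, the relative of Tal1, spans chr8:84701457-84704715 on the plus strand. Its level was 31.4, 30.4 and 13.5 CPM in WT replicates 1 to 3 and 50.1, 14.1, 28.4 and 23.2 CPM in ORP4L KI replicates 1 to 4. For both genes the groups overlapped, with the highest level in ORP4L KI replicate 1 and the lowest in WT replicate 3. Lmo2 had a log2 fold change of 0.25 (SE 0.34, unadjusted p = 0.490, adjusted p = 0.836 by edgeR). Lyl1 had 0.20 (SE 0.43, unadjusted p = 0.646, adjusted p = 0.900 by edgeR). ORP4L KI replicate 1 decided both signs, since without it the log2 fold changes were -0.00141 and -0.20. That library held the highest sums of granulocyte markers (143300 CPM) and of 10 stem and progenitor cell markers (166.4 CPM, against 81.07 to 106.6 CPM in WT and 61.2 to 113.0 CPM in the other ORP4L KI libraries), whose part in these levels was not tested. The longest run of bases shared by any protein-coding transcripts of Tal1 and Lyl1 had 14 letters, shown here because close relatives can share reads.
Tal1 and Lyl1: ttcaccaacagccg
The longest runs shared with relatives were 25 bases for Notch1 with Notch2, 19 for Dtx1 with Dtx4, 16 for Lmo2 with Lmo1, 26 for Runx1 with Runx2, 38 for Runx1 with Runx3, and 31 for Tlx1 with Tlx3, and how reads fitting several genes were counted is not given in the sources used here.

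Tlx1, a homeobox factor that is silent in normal T-cells, spans chr19:45150680-45156943 on the plus strand. It had 11, 3 and 3 reads in WT replicates 1 to 3 and 0, 0, 1 and 0 reads in ORP4L KI replicates 1 to 4. All ORP4L KI libraries were lower, at a level where the floor of 3 reads covers 6 of the 7 libraries. The ratio of pooled reads, ORP4L KI over WT, was 0.0399, with a 95% exact interval of 0.000955 to 0.255, and without WT replicate 1 it was 0.0737 (0.0016 to 0.607), both for counting error only. The gene was left out of the test by the filter on low counts, without which edgeR placed it past the thresholds, and it is too low to judge.

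Myc, a helix-loop-helix factor that drives growth and is a target of Notch, spans chr15:61985391-61990374 on the plus strand. Its level was 96.5, 81.5 and 71.8 CPM in WT replicates 1 to 3 and 62.0, 64.4, 101.9 and 75.6 CPM in ORP4L KI replicates 1 to 4. The groups overlapped, with the highest and the lowest library both in ORP4L KI. The log2 fold change was -0.13 (SE 0.22, unadjusted p = 0.570, adjusted p = 0.869 by edgeR).

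Runx1 spans chr16:92601466-92826149 on the minus strand. Its level was 103.2, 108.3 and 101.1 CPM in WT replicates 1 to 3 and 91.5, 105.8, 92.4 and 108.4 CPM in ORP4L KI replicates 1 to 4. It was the least variable gene of the 8 tested, and its groups overlapped. For Runx1 the log2 fold change was -0.07 (SE 0.17, unadjusted p = 0.698, adjusted p = 0.919 by edgeR).

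**Figure D3:**
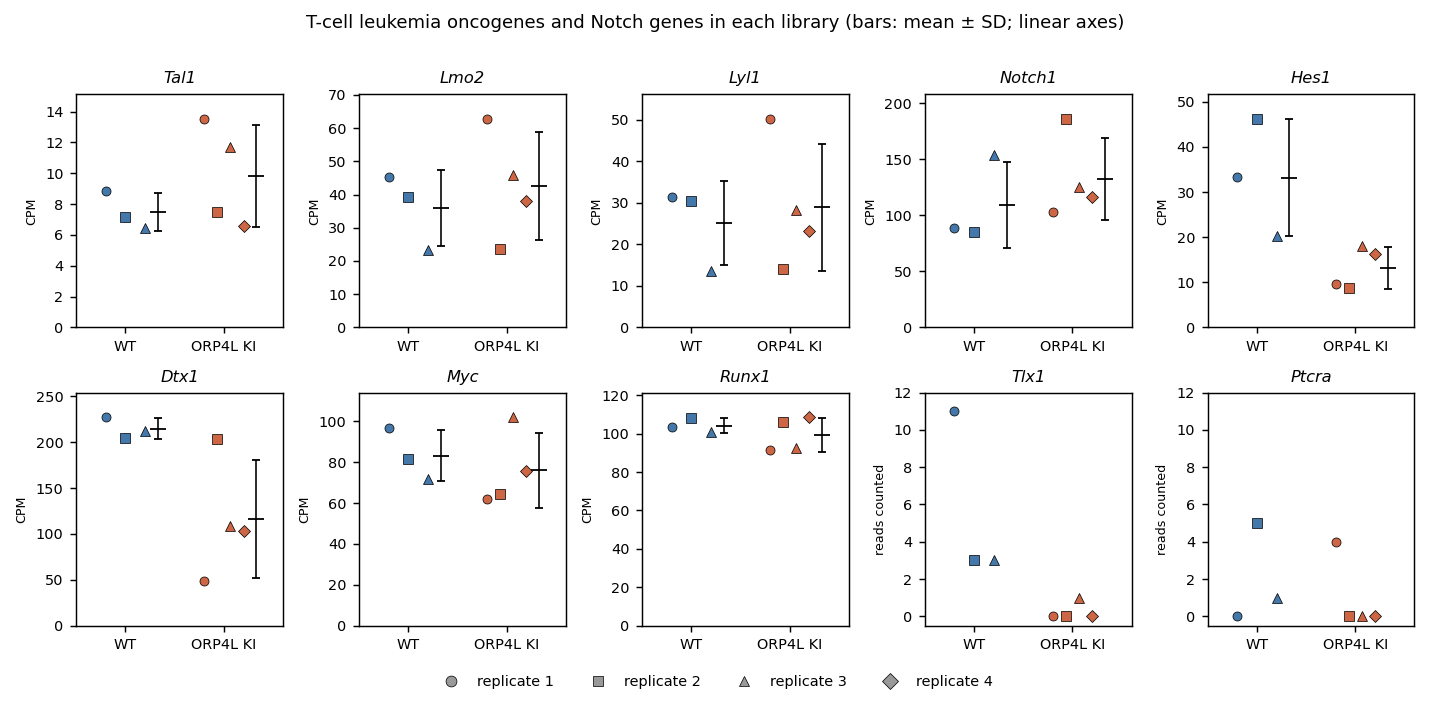
The 10 genes in each library, as CPM for the 8 tested genes (bars for mean ± SD of 3 WT and 4 ORP4L KI libraries) and as reads counted for Tlx1 and Ptcra, which are too low to judge. Hes1 and Dtx1 were lower in all ORP4L KI libraries than in all WT libraries, and the groups of Tal1, Lmo2, Lyl1, Notch1, Myc and Runx1 overlapped.

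Levels can be ordered between genes per length, for which the deposited RPKM values were used. In WT Dtx1 was the highest of the 10 genes at 61.4 ± 5.71 RPKM (SD, n = 3), followed by Myc at 36.8, Lmo2 at 24.8, Hes1 at 24.0, Runx1 at 15.5, Lyl1 at 14.6, Notch1 at 12.3, Tal1 at 1.89, Tlx1 at 0.19 and Ptcra at 0.102 RPKM. The ranges of neighbours in this order were apart only between Dtx1 and Myc, Myc and Lmo2, Notch1 and Tal1, and Tal1 and Tlx1. In ORP4L KI the order was Dtx1 at 31.3, Myc at 30.5, Lmo2 at 25.97, Lyl1 at 14.8, Notch1 at 13.7, Runx1 at 13.5, Hes1 at 8.69, Tal1 at 2.20, Ptcra at 0.0396 and Tlx1 at 0.00704 RPKM. Here Dtx1 and Myc overlapped, as did all neighbours down to Hes1, and only Hes1 and Tal1, and Tal1 and Ptcra, had ranges that were apart. On this scale Hes1 moved from the fourth to the seventh place.

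Of 52 further Notch pathway genes, 47 were tested, of which 1 passed the thresholds as higher and 4 as lower, against 4.68% of all tested genes in either direction. Of those 4, Notch3 passed the filter on low counts only through WT, the group where it was higher. None passed an adjusted p under 0.05. Their median log2 fold change was -0.03, against 0.01 over all tested genes.

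Among 8 further ligands and receptors, 7 were tested and 4 passed as lower, against 2.30% of all tested genes. The median log2 fold change of these 7 was -1.57. Dll4, a Delta ligand, was 4.53, 8.80 and 6.25 CPM in WT replicates 1 to 3 and 1.28, 1.37, 3.21 and 1.24 CPM in ORP4L KI replicates 1 to 4, with a log2 fold change of -1.87 (SE 0.42, adjusted p = 0.0885 by edgeR). Dll1, another Delta ligand, was 6.02, 5.78 and 2.11 CPM in WT replicates 1 to 3 and 0.608, 0.985, 2.18 and 1.49 CPM in ORP4L KI replicates 1 to 4, so that 1 library overlapped. The receptor Notch3 was 1.74 to 2.01 CPM in WT and 0.230 to 0.821 CPM in ORP4L KI, with a log2 fold change of -1.75, and with 4 to 15 reads per ORP4L KI library it passed the filter on low counts only through WT. Without Notch3, 3 of 6 tested genes of the list passed, with a median of -0.999. Notch4, a receptor of endothelial cells, was 5.54 to 10.3 CPM in WT and 1.34 to 5.05 CPM in ORP4L KI, with a log2 fold change of -1.57. All 4 were under 11 CPM, whereas Notch1 was 84.8 CPM or more and Notch2, another receptor, 87.0 CPM or more in every library. The endothelial marker sum and the dendritic cell marker sum were lower in the same libraries, and their part in these levels was not tested. Leaving out 1 library at a time, Dll4 passed in 7 of 7 fits, Notch3 in 4, Dll1 in 3 and Notch4 in 2.

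None of 15 genes that process Notch or its ligands passed the thresholds, against 4.68% of all tested genes in either direction. The highest log2 fold change was that of Aph1b, a subunit of gamma-secretase, at 1.204 (SE 0.46, unadjusted p = 0.0258 by edgeR), and the lowest that of Poglut1, a glucosyltransferase of Notch, at -0.57 (SE 0.18, unadjusted p = 0.0114 by edgeR). None of 10 genes of the nuclear complex passed either. Rbpj itself was 84.5 to 113.6 CPM in WT and 74.5 to 113.6 CPM in ORP4L KI. The lowest value there was that of Maml3, a Mastermind coactivator, at -0.94 (unadjusted p = 0.0115 by edgeR), and the highest that of Kdm5a, a histone demethylase, at 0.28 (unadjusted p = 0.424 by edgeR).

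Of 12 other Notch targets 8 were tested, of which 1 passed as higher and none as lower, against 2.38% and 2.30% of all tested genes. The median log2 fold change of these 8 was 0.39. Dtx4, a relative of Dtx1, was 14.2, 16.1 and 17.7 CPM in WT replicates 1 to 3 and 28.8, 54.0, 27.8 and 32.6 CPM in ORP4L KI replicates 1 to 4. Its log2 fold change was 1.16 (SE 0.27, adjusted p = 0.0968 by edgeR), with every ORP4L KI library above every WT library. It passed in 5 of 7 fits that left out 1 library, and not without ORP4L KI replicate 2 or WT replicate 1. Nrarp, whose upstream window is given above, was 11.2, 20.2 and 15.7 CPM in WT replicates 1 to 3 and 13.6, 24.9, 49.3 and 64.9 CPM in ORP4L KI replicates 1 to 4. Its log2 fold change of 1.28 (SE 0.49, unadjusted p = 0.0273 by edgeR) did not pass, and ORP4L KI replicate 1 lay inside the WT range. Il2ra, a subunit of the interleukin-2 receptor, had -0.73 (unadjusted p = 0.0278 by edgeR). Hes5, Hes7, Hey2 and Heyl, further repressors of the Hes and Hey family, were under the filter, with no library above 0.684 CPM. None of 7 genes that restrain Notch passed, against 4.68% of all tested genes in either direction. The highest was Fbxw7, the ubiquitin ligase that degrades the active form, at 0.50 (unadjusted p = 0.0335 by edgeR). The lowest was Itch, another ubiquitin ligase, at -0.34 (unadjusted p = 0.241 by edgeR).

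**Figure D4:**
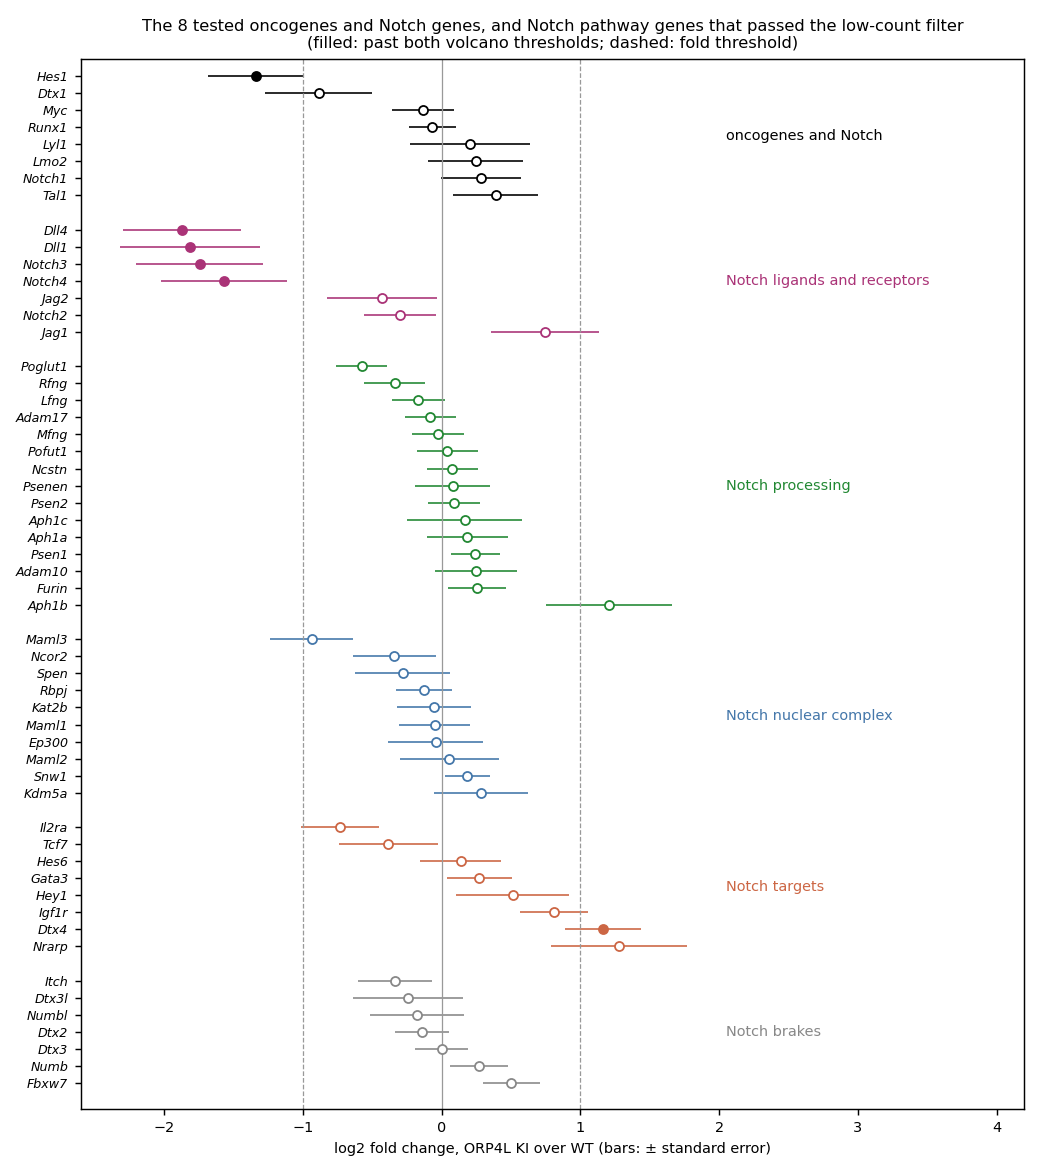
Log2 fold change, ORP4L KI over WT, with its standard error for the 8 tested oncogenes and Notch genes and for the tested genes of 5 Notch lists, with filled points for genes past both thresholds. The filled points are Hes1, Dll4, Dll1, Notch3 and Notch4 on the lower side and Dtx4 on the higher side.

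Of 25 other transcription factors linked to T-ALL, 16 were tested, and 1 passed as higher and 1 as lower. The shares over all tested genes were 2.38% as higher and 2.30% as lower. Lmo1, the LIM-only relative of Lmo2, was 3.23, 4.40 and 1.61 CPM in WT replicates 1 to 3 and 27.9, 10.2, 10.4 and 14.8 CPM in ORP4L KI replicates 1 to 4. The groups did not overlap, and the log2 fold change was 2.35 (SE 0.47, adjusted p = 0.0686 by edgeR). Mycl, a relative of Myc, was 19.0 to 28.7 CPM in WT and 6.39 to 14.8 CPM in ORP4L KI, with a log2 fold change of -1.38 (SE 0.31, adjusted p = 0.0864 by edgeR). Both passed in 7 of 7 fits that left out 1 library. Lmo1 was highest in ORP4L KI replicate 1, the library with the highest granulocyte marker sum, whose part was not tested. Tlx3, the relative of Tlx1, had 0 reads in every library.

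Of 14 partners of Tal1 and Lmo2, all were tested, and 1 passed in each direction. The shares over all tested genes were 2.38% as higher and 2.30% as lower. Erg, an ETS factor of blood stem cells and of endothelium, was 4.65, 2.33 and 1.97 CPM in WT replicates 1 to 3 and 25.5, 5.64, 13.1 and 21.0 CPM in ORP4L KI replicates 1 to 4, a log2 fold change of 2.44 (SE 0.54, adjusted p = 0.0838 by edgeR). Erg is also among the stem and progenitor markers, of which 8 of 10 were tested. Of those 8, Erg and Prom1 passed as higher. Kit, the stem cell factor receptor, passed as lower, below WT in all 4 ORP4L KI libraries (log2 fold change -1.07, adjusted p = 0.0603 by edgeR). Prom1, with 7 to 29 reads per WT library, passed the filter on low counts only through ORP4L KI. Of the 6 markers that passed this filter through both groups, 1 passed the thresholds as higher and 1 as lower. Cbfa2t3, a corepressor of the ETO family that was also listed with the Runx genes, was 60.3 to 92.3 CPM in WT and 18.3 to 40.9 CPM in ORP4L KI, with a log2 fold change of -1.199 (SE 0.28, adjusted p = 0.0973 by edgeR), and it passed in 6 of 7 fits that left out 1 library, not without WT replicate 2. Ldb1, which joins Lmo2 to DNA-bound factors, was 230.6 to 294.0 CPM in WT and 200.8 to 300.8 CPM in ORP4L KI. Of 6 Runx genes and partners 5 were tested, and Cbfa2t3 was the 1 that passed, against 4.68% of all tested genes in either direction.

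None of 10 genes of the Myc network and none of 28 Myc targets passed, against 4.68% of all tested genes in either direction. Their median log2 fold changes were 0.27 and 0.13. Groups did not overlap, with ORP4L KI higher, for 3 of the 10 and 3 of the 28, against 6.43% of all tested genes. With ORP4L KI lower they did not overlap for 0 of the 10 and 1 of the 28, against 7.38%. In the network the highest was Mxi1, a repressor that competes with Myc for Max, at 0.75 (unadjusted p = 0.00766 by edgeR), and the lowest Mga, another Max partner, at -0.34 (unadjusted p = 0.408 by edgeR). Among the targets the highest was Odc1, the first enzyme of polyamine synthesis, at 0.83 (unadjusted p = 0.0117 by edgeR), and the lowest Cad, an enzyme of pyrimidine synthesis, at -0.43 (unadjusted p = 0.0484 by edgeR).

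Of 13 genes of the pre-T-cell receptor stage and of thymocytes, which Ptcra marks, 10 were tested and 2 passed as lower. The share over all tested genes was 2.30%. Rag1 and Rag2, the recombinase that cuts receptor genes in the thymus, were under the filter, with no library above 0.547 CPM. Dntt, the terminal transferase of the same reaction, was 4.84 to 8.67 CPM in WT and 2.47 to 4.56 CPM in ORP4L KI, with a log2 fold change of -1.15 (SE 0.33, adjusted p = 0.147 by edgeR), and it passed in 2 of 7 fits that left out 1 library. Ccr9, a chemokine receptor that is also among the dendritic cell markers, was 21.9 to 28.5 CPM in WT and 5.35 to 12.6 CPM in ORP4L KI, with a log2 fold change of -1.60 (SE 0.29, adjusted p = 0.0623 by edgeR). Over all 145 companion genes, each counted once, 127 were tested, 3 passed as higher and 8 as lower. The 8 include Notch3, which passed the filter on low counts only through WT. Of all tested genes 2.38% passed as higher and 2.30% as lower.

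**Figure D5:**
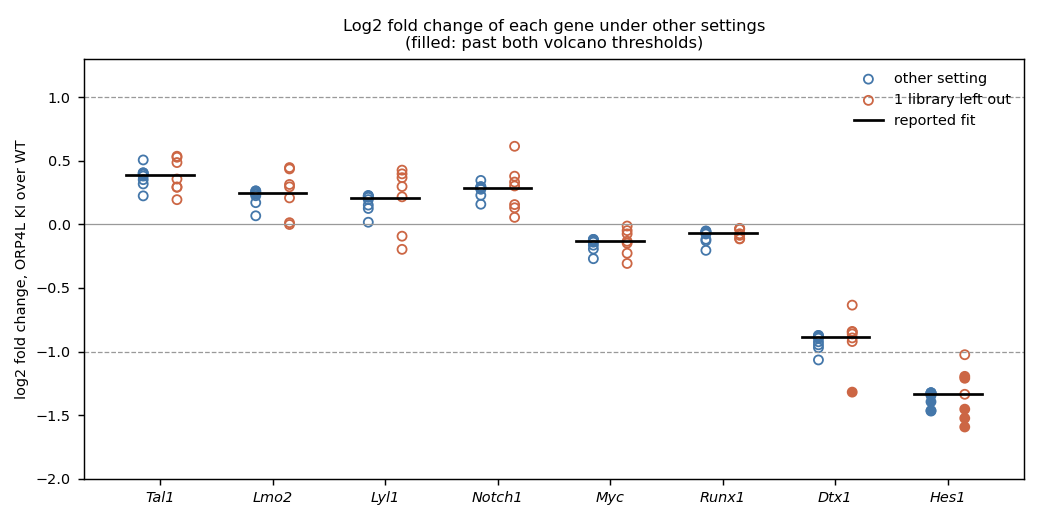
Log2 fold change of the 8 tested genes as reported (line), under other settings of scaling, filter, test, block or sex, and with 1 library left out, with filled points past both thresholds. Hes1 stayed between -1.59 and -1.02, Dtx1 between -1.32 and -0.64, and Lmo2 and Lyl1 crossed 0 when single libraries were left out.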

How the data were processed

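T-cell RNA of 3 WT and 4 ORP4L KI mice was sequenced. The authors mapped reads to a mouse mRNA reference with FANSe3, merged splice variants and deposited whole-number counts per gene, without normalization. They also deposited RPKM values, per kilobase of the longest transcript, which were used here only to order genes within a group. The labels name mm10. Whether T-cells came from blood or spleen is not given per library, and the strand setting is not given.

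Groups follow the labels, and all libraries differed beyond counting noise. The quasi-likelihood test of edgeR 4.0.16 (R 4.3.3) was run over 13462 genes that passed filterByExpr (minimum count 10, minimum total 15), with TMM scaling and no covariate. The standard error is the log2 fold change over the square root of F. Exact permutation tests used log2(CPM + 0.5). P-values measure the spread between these mice. The members and companion lists were chosen with earlier results of these data known. Named genes are the 10 members, Osbp2, companion genes past the thresholds (or the highest and lowest of a list) and markers. Rbpj, Ldb1, Notch2, Nrarp, Il2ra, Tlx3, the Rag genes and the Hes and Hey genes under the filter are outside this rule, picked with their values in view. Alternatives were other scalings and filters, DESeq2 1.42.0, a replicate block, a sex term (sex read from Xist and Ddx3y) and each library left out. On simulated data the test was checked before use. Upstream windows came from RefSeq (GRCm38.p6), gene spans from GENCODE on GRCm38. Tables used pandas 2.3.3 and SciPy 1.17.1, and plots used Matplotlib 3.10.9 (Python 3.11.15).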

Additional observations from a re-analysis of the deposited data

Results flagged for a closer look

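Dll4, the Delta ligand that passed the thresholds as lower in ORP4L KI, had 1 library far from the others of its group. ORP4L KI replicate 3 stood at 3.21 CPM, and the other 3 ORP4L KI libraries stood between 1.24 and 1.37 CPM. The gap was 0.937 of the group's whole range. Of 29 items examined this was the 1 that stood out, and chance alone singles out about 5% of groups. That library still lay under the lowest WT library, at 4.53 CPM.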

How the results depend on the processing

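Of 120 values of single genes under the alternatives, 114 kept their direction and their side of the thresholds, 3 reversed, 2 lost the thresholds and 1 gained them. Lmo2 turned to -0.00141 without ORP4L KI replicate 1, and Lyl1 to -0.20 without it and -0.09 without WT replicate 3, while with 1 library left out their highest values were 0.45 and 0.43. The count of members past the thresholds was 1 as reported, 2 without the filter (Tlx1 with Hes1), 2 at an unadjusted p under 0.05 without a fold threshold (Hes1 and Dtx1, against 13.7% of all genes), and 0 to 2 with 1 library left out, being 0 without WT replicate 1 or 2 and 2 without ORP4L KI replicate 2, where the calls over all genes went from 630 to 438, 329 and 805. Members at an adjusted p under 0.05 rose from 0 to 1 (Hes1) with DESeq2's Wald test. Members with non-overlapping groups went from 2 to 3 without the filter and without WT replicate 3. With total counts alone they went to 1 (Hes1), since the groups of Dtx1 then overlapped. That scaling moved the all-gene median by -0.14 (log2). Companion genes past the thresholds were 11 as reported and 6 to 12 with 1 library left out, with 6 without WT replicate 2 and 7 without WT replicate 1, beside the falls over all genes just given. With the replicate number as a block, which left out ORP4L KI replicate 4, 7 companion genes and 466 of all genes passed, Hes1 had -1.47 (edgeR unadjusted p = 0.00611) and Dtx1 -1.07 (edgeR unadjusted p = 0.0310). Deviations of same-numbered libraries correlated at -0.581 to 0.171 across genes, and those of different-numbered libraries at -0.426 to 0.548. With so few pairs these values cannot decide whether the numbers mark a pairing. The cause of these changes was not tested. Depth limited Tlx1 and Ptcra.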
